A study of Mus musculus with 5 samples.

Results

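Low-GC promoter peaks are H3K9ac peaks that lie at gene starts but whose own DNA is poor in G and C. They were taken by sequence and position alone, as peaks whose called position fell within 1 kb of the start of a protein-coding transcript and whose 200 bp interval held at most 45% G and C. By this rule 1735 of the 25276 promoter peaks in the Q111 DOP list were low in GC (6.86%, 95% Wilson interval 6.56 to 7.18), and 1838 of 25008 in the Q111 SST list (7.35%, interval 7.03 to 7.68). They made up 5.06% and 5.51% of all 34286 and 33355 peaks of these lists. With each peak given to the gene of the nearest start, they belonged to 1556 genes in the Q111 DOP list and 1641 in the Q111 SST list.

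The lists come from STHdhQ111/Q111 cells, an immortalized line of mouse striatal progenitors that expresses mutant huntingtin, of strain C57BL/6 according to the labels. This is a single line, so the lists describe that line only. All cells were kept in serum-free medium for 24 h. The Q111 DOP cells (2 samples) received 4 mM 4-deoxypyridoxine hydrochloride (DOP), which inhibits sphingosine-1-phosphate lyase, while the Q111 SST cells (2 samples), labeled as serum starvation, received the DPBS vehicle. H3K9ac chromatin immunoprecipitation sequencing (ChIP-seq) of each pair of samples is represented by 1 deposited peak list, and the IgG control (1 sample) was not analysed here. Because a list has no replicate values, the intervals given here cover the counting of peaks only, and a difference between the lists is not a tested effect of DOP. The score of a peak is the authors' value, of unstated definition, and was used as a percentile rank within its own list, where 100 is the highest. A peak was counted as found in both lists, or shared, where it overlapped a peak of the other list by at least 1 bp.

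Acetylation of lysine 9 on histone H3 marks nucleosomes around the starts of active genes. Most mammalian housekeeping promoters lie in CpG islands, stretches rich in G, C and the CpG dinucleotide that generally escape DNA methylation, whereas many tissue-specific or inducible promoters are CpG-poor and some carry a TATA box. The acetylated nucleosomes flank the nucleosome-depleted start and can reach past the edge of the island into DNA of ordinary composition. Of genes that mark cell types, Vim, Cdh2 and Dlx1 (neural progenitor genes) had promoter peaks in both lists, whereas Nes, Sox2 and Pax6 had none. Of 5 mesenchymal markers Col1a1, Col1a2 and Pdgfrb had promoter peaks in both lists. Of 4 astrocyte markers Slc1a3 had a promoter peak in the Q111 DOP list, as did Ppp1r1b of the 7 markers of mature striatal neurons, and none of the 4 microglial markers had one.

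The DNA of these peaks is shown first for pairs within 1 gene. Each pair sets a low-GC peak against the highest-scoring GC-richer promoter peak of the same gene, with every CpG in capitals, on the + strand of mm9. Ncor1 (a corepressor that recruits a histone deacetylase) and Slc3a2 (the heavy chain shared by several amino acid transporters) hold the highest-scoring low-GC peaks of the Q111 DOP and the Q111 SST list outside the repeat stretches described below, and both peaks were found in both lists. At Ncor1, however, the overlapping Q111 SST peak was above the GC limit.
Ncor1 low-GC peak, chr11:62271417-62271616: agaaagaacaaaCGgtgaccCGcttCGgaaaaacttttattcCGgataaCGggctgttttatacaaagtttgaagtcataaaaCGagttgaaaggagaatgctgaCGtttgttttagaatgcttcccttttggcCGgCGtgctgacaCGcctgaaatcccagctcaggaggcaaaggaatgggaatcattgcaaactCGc
Ncor1 GC-richer peak, chr11:62270414-62270613: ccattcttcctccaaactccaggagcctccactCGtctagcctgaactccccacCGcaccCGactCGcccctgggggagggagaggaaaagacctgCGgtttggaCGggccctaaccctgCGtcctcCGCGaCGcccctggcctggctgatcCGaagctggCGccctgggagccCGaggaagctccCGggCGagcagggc
Slc3a2 low-GC peak, chr19:8798214-8798413: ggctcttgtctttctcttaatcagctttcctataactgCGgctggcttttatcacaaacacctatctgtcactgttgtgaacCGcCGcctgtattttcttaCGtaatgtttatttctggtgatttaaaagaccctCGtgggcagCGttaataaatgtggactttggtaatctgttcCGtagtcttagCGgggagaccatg
Slc3a2 GC-richer peak, chr19:8797380-8797579: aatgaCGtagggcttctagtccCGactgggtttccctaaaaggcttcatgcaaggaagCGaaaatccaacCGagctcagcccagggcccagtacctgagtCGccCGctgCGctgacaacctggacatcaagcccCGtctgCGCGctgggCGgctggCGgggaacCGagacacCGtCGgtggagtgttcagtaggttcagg
The Ncor1 low-GC peak (45% GC, 11 CpG) lay at -208 bp from a start, where negative values are upstream, and its partner (68.5% GC, 15 CpG) at 312 bp from another start of the gene. By annotation this low-GC peak was intronic, and it also lay within 1 kb of a start of Pigl. The Slc3a2 low-GC peak (43.5% GC, 8 CpG) lay at -454 bp and outside genes, with its partner (61% GC, 15 CpG) at 380 bp. In the Q111 DOP list the Ncor1 low-GC peak ranked at percentile 92.8 and its partner at 96.0. At Slc3a2 in the Q111 SST list the order was the opposite, with the low-GC peak at 93.3 and its partner at 89.2.

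Dennd1b (an exchange factor for Rab GTPases) and Ormdl1 (of the ORMDL family, which restrains serine palmitoyltransferase, the first enzyme of sphingolipid synthesis) hold the highest-scoring low-GC peaks outside the repeat stretches that were found in 1 list only.
Dennd1b low-GC peak, chr1:140860901-140861100: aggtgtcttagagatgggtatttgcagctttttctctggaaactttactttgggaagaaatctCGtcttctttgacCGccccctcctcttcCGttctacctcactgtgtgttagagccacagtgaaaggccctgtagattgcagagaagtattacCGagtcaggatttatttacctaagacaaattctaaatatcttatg
Dennd1b GC-richer peak, chr1:140860562-140860761: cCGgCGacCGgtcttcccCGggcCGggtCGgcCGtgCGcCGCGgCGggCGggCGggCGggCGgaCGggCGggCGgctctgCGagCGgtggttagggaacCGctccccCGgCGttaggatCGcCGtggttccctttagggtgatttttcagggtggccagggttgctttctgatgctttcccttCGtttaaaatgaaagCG
Ormdl1 low-GC peak, chr1:53354348-53354547: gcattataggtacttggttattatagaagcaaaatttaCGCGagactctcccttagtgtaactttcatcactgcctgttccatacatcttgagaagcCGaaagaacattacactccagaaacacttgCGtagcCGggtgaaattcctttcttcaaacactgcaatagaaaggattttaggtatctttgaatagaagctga
Ormdl1 GC-richer peak, chr1:53354090-53354289: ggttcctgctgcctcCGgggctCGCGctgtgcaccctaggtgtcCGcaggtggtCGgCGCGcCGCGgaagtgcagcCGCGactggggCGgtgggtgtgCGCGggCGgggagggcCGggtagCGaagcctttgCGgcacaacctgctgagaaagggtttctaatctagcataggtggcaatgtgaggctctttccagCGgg
The Dennd1b low-GC peak (42% GC, 4 CpG), 714 bp into the gene and intronic, was found only in the Q111 DOP list at percentile 91.3. Its partner, 375 bp into the gene, had 68.5% GC and 27 CpG and ranked at 99.6. The Ormdl1 low-GC peak (39% GC, 5 CpG), 508 bp into the gene and intronic, was found only in the Q111 SST list at percentile 87.5, with a partner of 67.5% GC and 19 CpG at 250 bp that ranked at 96.4. The nearest peak of the other list lay 445 bp from the Dennd1b peak and 272 bp from the Ormdl1 peak, so both genes had a promoter peak in both lists. In both pairs the interval closer to the start was the one rich in CpG.

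Anxa1 (annexin A1, a phospholipid-binding protein induced by glucocorticoids) is the highest-ranked gene outside the repeat stretches that had low-GC promoter peaks alone.
Anxa1 low-GC peak, chr19:20464682-20464881: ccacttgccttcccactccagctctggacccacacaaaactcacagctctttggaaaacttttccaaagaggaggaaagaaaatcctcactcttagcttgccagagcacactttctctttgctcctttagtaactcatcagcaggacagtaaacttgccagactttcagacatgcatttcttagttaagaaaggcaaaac
This interval, 381 bp into the gene and in an intron, had 44% GC and no CpG at all, and ranked at percentile 83.3 of the Q111 SST list. A TATA box motif (defined below with the other motifs) was found 20 to 40 bases before the start of Anxa1.

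The strongest low-GC promoter peaks of both lists lay in 2 short stretches of predicted genes. On chromosome 2, the peaks at Gm10800 reached a score of 112288 in the Q111 DOP list and 94657.6 in the Q111 SST list, the highest of each list, against medians of 255 and 241 over all low-GC promoter peaks. On chromosome 9, a stretch from chr9:3000241-3038050 held 39 low-GC peaks in the Q111 DOP list and 45 in the Q111 SST list at 11 and 12 genes, with scores from 440 to 7244 and from 714.8 to 5877. Identical words of 20 bases recurred there most often 234 bp apart, the unit length of the mouse major satellite of pericentromeric heterochromatin, and 251 bp apart in the chromosome 2 stretch. The first interval below is the highest-scoring shared peak, and the other two are the highest-scoring low-GC peaks found in the Q111 DOP list only (Gm10719) and in the Q111 SST list only (Gm10716).
Gm10800 low-GC peak, chr2:98507191-98507390: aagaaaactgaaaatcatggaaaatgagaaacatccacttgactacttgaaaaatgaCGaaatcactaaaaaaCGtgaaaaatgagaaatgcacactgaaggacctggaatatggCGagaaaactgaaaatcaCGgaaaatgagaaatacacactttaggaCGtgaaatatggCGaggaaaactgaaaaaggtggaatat
Gm10719 low-GC peak, chr9:3016487-3016686: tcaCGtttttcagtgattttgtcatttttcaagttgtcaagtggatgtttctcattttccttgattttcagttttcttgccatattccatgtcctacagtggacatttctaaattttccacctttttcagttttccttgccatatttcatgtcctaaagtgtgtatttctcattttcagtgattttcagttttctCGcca
Gm10716 low-GC peak, chr9:3029661-3029860: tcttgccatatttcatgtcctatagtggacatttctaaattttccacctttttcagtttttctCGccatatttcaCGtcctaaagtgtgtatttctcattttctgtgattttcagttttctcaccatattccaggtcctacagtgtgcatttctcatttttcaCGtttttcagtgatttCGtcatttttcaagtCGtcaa
All 42 and 47 low-GC peaks of these stretches were in the top 50% of their list, and the 13 genes there, all with low-GC promoter peaks alone, include Gm10717, Gm10718, Gm10720, Gm10721, Gm10722, Gm11167, Gm11168, Gm17535 and Gm10106. How reads that match many places were treated is not stated, and the part this plays in these scores was not tested. The stretches are kept in the counts that follow unless stated, and leaving them out, which was chosen after seeing the data, moved the median rank of the members by less than 1 percentile point in either list.

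Outside these stretches, the 10 highest low-GC peaks of the Q111 DOP list lay at Ncor1, Dennd1b, Rbfox2 (a splicing regulator, with 2 peaks), Atg5 (needed for autophagosome formation), Rpl7 (a protein of the large ribosomal subunit), Mbtps1 (the site-1 protease that activates SREBPs), Ankrd13a, Ascc1 and Slc3a2, at percentiles from 83.4 to 92.8. Those of the Q111 SST list lay at Slc3a2, S100a4 (a calcium-binding protein), Rpl27, Tuba1b (an alpha-tubulin), Mbtps1, Ddx17 (an RNA helicase), Ormdl1, Cdkn2b (the inhibitor p15 of Cdk4 and Cdk6), Ap1g1 (a subunit of the AP-1 clathrin adaptor) and Dgcr8 (of the microRNA microprocessor), at percentiles from 85.9 to 93.3. Slc3a2 and Mbtps1 stood in both sets. The low-GC peak of Mbtps1, in an intron, ranked at 85.1 in the Q111 DOP list and 89.3 in the Q111 SST list with centers 22 bp apart, and that of Cdkn2b at 82.2 and 87.3 with centers 64 bp apart. The highest low-GC peak of Rpl7 ranked at 87.7 in the Q111 DOP list and at 51.8 in the Q111 SST list, but these are different positions, and the nearest Q111 SST center to the first, 50 bp away, belongs to a peak above the GC limit.

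As a class, low-GC promoter peaks ranked far below the other promoter peaks. Their median score percentile was 30.9 (quartiles 19.5 and 45.7) in the Q111 DOP list and 30.6 (18.8 and 45.8) in the Q111 SST list, against 61.7 and 61.3 for the other promoter peaks. In the Q111 DOP list 357 of the 1735 low-GC peaks (20.6%, interval 18.7 to 22.5) were in the top 50% by score, against 63.9% of the other promoter peaks, a difference of -43.3 percentage points (Newcombe interval -45.2 to -41.2). In the Q111 SST list 369 of 1838 were (20.1%, interval 18.3 to 22.0), against 63.3%, a difference of -43.3 points (interval -45.1 to -41.3). The median percentile of low-GC peaks was below that of the other promoter peaks on 20 of 20 chromosomes in both lists, while their share among promoter peaks ranged from 4.96% to 9.97% by chromosome in the Q111 DOP list and from 4.29% to 10.2% in the Q111 SST list.

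The rank rose smoothly with GC content, with no step at 45%. From intervals of at most 40% GC to those above 75%, the median percentile went from 28.6 to 80.9 in the Q111 DOP list and from 28.8 to 80.6 in the Q111 SST list, and the share of peaks also found in the other list from 61.3% to 95.4% and from 62.0% to 95.9%. Just inside the limit, at 45% GC exactly, 169 and 193 peaks had median percentiles of 35.1 and 32.2 and were shared in 72.2% and 77.7% of cases. Just outside it, at 45.5% GC, 179 and 172 peaks had medians of 31.4 and 33.2 and were shared in 73.2% and 74.4%.

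**Figure D1:**
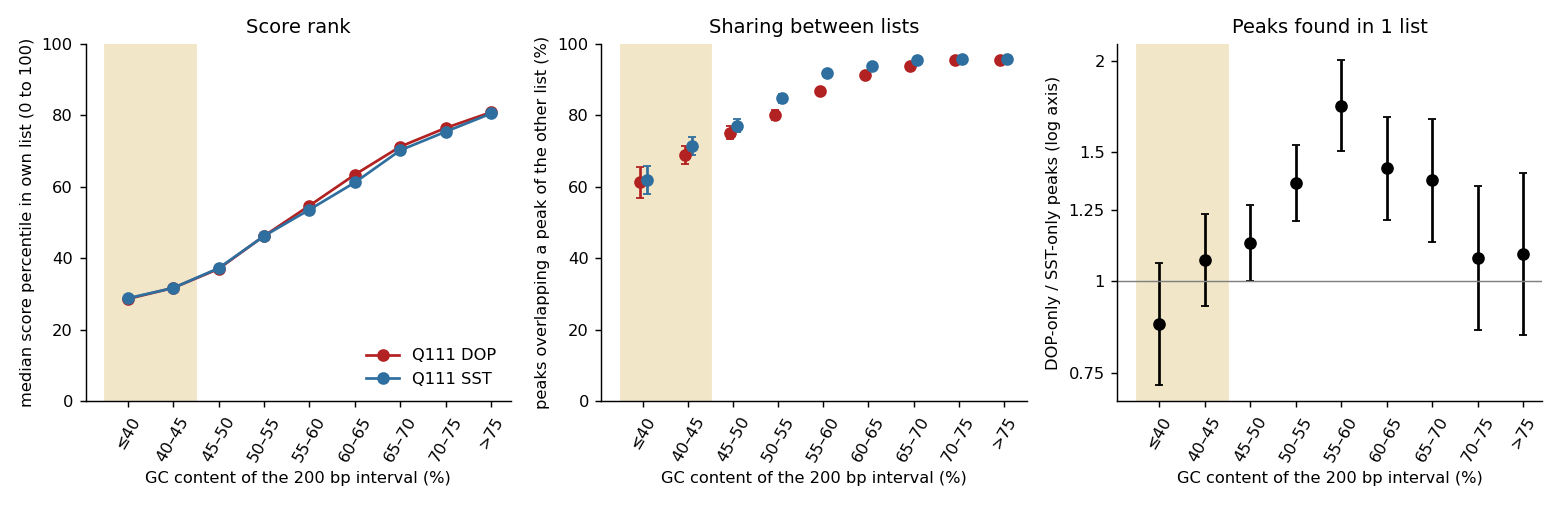
Promoter peaks by the GC content of their interval (bins of 5 percentage points that include their upper bound, shaded where GC is at most 45%): the median score percentile, the share of peaks overlapping a peak of the other list, and the ratio of DOP-only to SST-only peaks on a log axis, where the bars on shares and ratios are 95% intervals from counting. Rank and sharing rise with GC in both lists, and the ratio is 0.874 at or below 40% GC and highest, at 1.74, between 55 and 60%.

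Low-GC promoter peaks were called at overlapping positions in both lists less often than other promoter peaks. Of the members 577 (33.3%) were found in the Q111 DOP list only and 580 (31.6%) in the Q111 SST list only. Among all peaks the share found in 1 list was 20% and 16.7%, and among the other promoter peaks 11% and 8.42%. The shared share was thus 66.7% (interval 64.5 to 68.9) against 89% in the Q111 DOP list, a difference of -22.2 percentage points (interval -24.5 to -20.0). In the Q111 SST list it was 68.4% (66.3 to 70.5) against 91.6%, a difference of -23.1 points (interval -25.3 to -21.0). Sharing depended on rank, so members and other promoter peaks were also compared within deciles of the score. There the members were shared less often in 9 of 10 deciles of the Q111 DOP list and 10 of 10 of the Q111 SST list, with the interval below 0 in 8 and 9. Weighted to the members' deciles, the other promoter peaks would be shared in 76.6% and 82.7% of cases, which leaves a difference of -9.90 and -14.3 points.

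**Figure D2:**
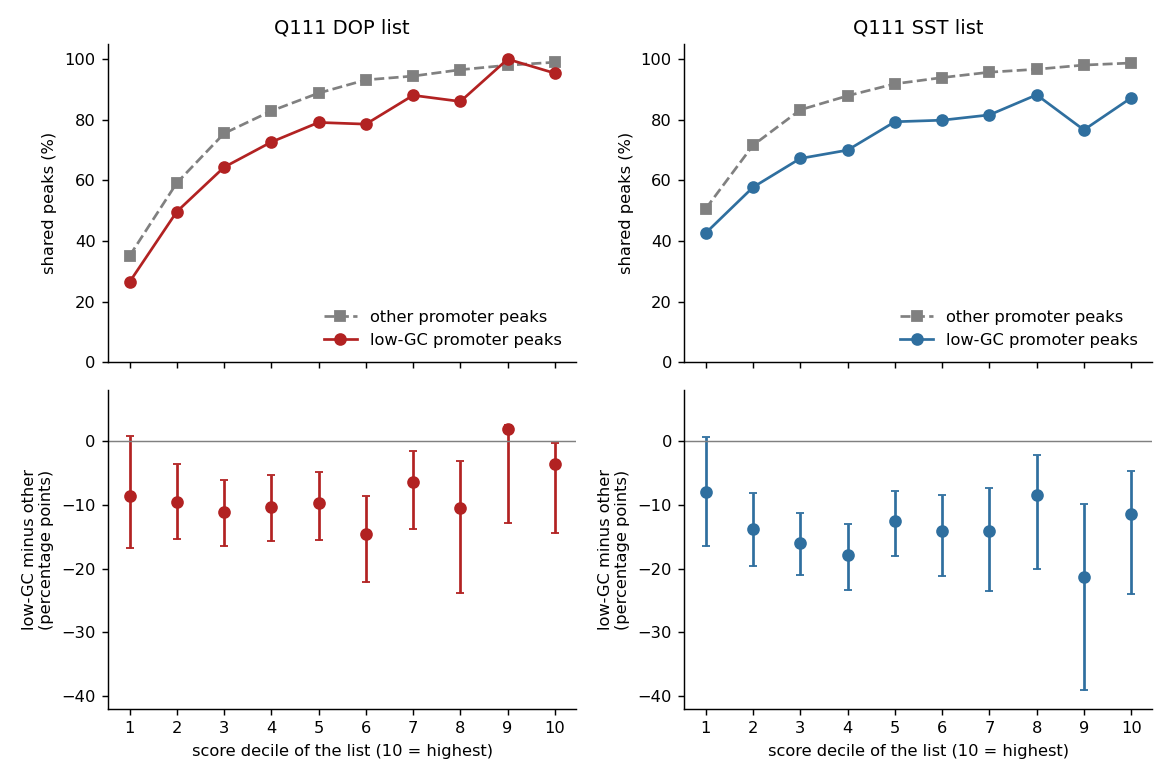
Share of promoter peaks that overlap a peak of the other list, by score decile of their own list (top), and the low-GC share minus the other share with its 95% Newcombe interval (bottom). Both classes rise with the score, and the low-GC peaks lie lower in every decile but the ninth of the Q111 DOP list, which holds 22 of them.

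Nearly all of the members found in 1 list had a peak of the other list close by. Of the 577 members found in the Q111 DOP list only, 537 had a center of the Q111 SST list within 1 kb, and of the 580 found in the Q111 SST list only 543 had one of the Q111 DOP list. This nearest peak was a promoter peak above the GC limit for 85.4% and 84.1% of them and another low-GC promoter peak for 6.24% and 7.24%. When a center within 1 kb counted as sharing, 97.7% and 98% of the members were shared, against 97.5% and 98.3% of the other promoter peaks, with differences of 0.175 points (interval -0.665 to 0.817) and -0.282 points (-1.05 to 0.294). The lower sharing of low-GC peaks was thus seen when intervals had to overlap, or centers to lie within 500 bp (84.5% and 87.9% against 94.2% and 96.3%), and not at 1 kb. Of the peaks found in 1 list, 6.93% and 6.38% of the members lay over 1 kb from any peak of the other list, against 22.5% and 20.5% of the other promoter peaks.

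After Dennd1b, the highest members found in the Q111 DOP list only and outside the repeat stretches were at Sephs1 (percentile 74.6), Brd2 (74.4), which encodes a bromodomain protein that binds acetylated histones, Spats2 (72.9) and Sept2 (72.6), a septin. After Ormdl1, those of the Q111 SST list were at Ap1g1 (86.3), Rac1 (84.6), a small GTPase of the actin cytoskeleton, 4732440D04Rik (83.1) and Phf17 (80.8), a scaffold of a histone acetyltransferase complex. Brd2 is the 1 gene of these whose peak had no center of the other list within 1 kb, at 1082 bp. Of the 40 and 37 members without such a center, the 5 highest of each list outside the repeat stretches are named here. They were chosen after their values were seen. After Brd2, the highest in the Q111 DOP list were at Tnpo2, Gas1 (a Hedgehog co-receptor), Nsmce1 and Nfia (a transcription factor of glial development), at percentiles from 43.7 to 59.7. Those of the Q111 SST list were at Rcc2, Vgll4 (a partner of TEAD factors), I830012O16Rik, Ndufb3 (of respiratory complex I) and Arid5b, at percentiles from 43.3 to 64.3.

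The low-GC peaks found in 1 list were divided evenly between the lists, while the other promoter peaks as a whole were more often found in the Q111 DOP list only. The ratio of DOP-only to SST-only peaks was 0.995 (interval 0.887 to 1.12) for the members and 1.33 (1.254 to 1.41) for the other promoter peaks, from 2595 and 1952 peaks. By GC content the interval of the ratio also included 1 at 45 to 50% GC (1.13, interval 0.9997 to 1.27), at 70 to 75% (1.08, 0.858 to 1.35) and above 75% (1.09, 0.843 to 1.41), and lay above 1 only in the bins from 50 to 70%. The even split was thus not particular to low GC. The ratio of the ratios of members and others was 0.748 (Woolf interval 0.658 to 0.852). Among peaks in the top 50% by score it was 0.678 (0.461 to 0.996), and among those in the bottom 50% 0.735 (0.640 to 0.845). It did not differ from 1 beyond its interval when the promoter window was 500 bp wide to either side (0.885, interval 0.725 to 1.08) or for peaks over 1 kb from any peak of the other list (0.742, interval 0.466 to 1.18).

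Members found in 1 list also differed in side between the lists. Of those in the Q111 DOP list only, 290 of 577 (50.3%) lay upstream of the start, against 222 of 580 (38.3%) in the Q111 SST list only, a difference of 12 percentage points (interval 6.26 to 17.6). The other promoter peaks found in 1 list differed in the same direction, with 46.9% against 39.3% (difference 7.64, interval 4.74 to 10.5). This compares 2 lists with no replicate of either.

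Low-GC promoter peaks lay away from the start itself. Only 11.4% (interval 10.0 to 13.0) of the members in the Q111 DOP list and 10.8% (9.44 to 12.3) in the Q111 SST list had their center within 250 bp of a start, against 41.7% and 41.8% of the other promoter peaks. They gathered in 2 zones, from 500 to 250 bp before the start (21.8% and 18%) and from 500 to 750 bp after it (29.5% and 32.7%). The share upstream was 41.4% and 37.2%, against 24.4% and 22.8% of the other promoter peaks. By annotation, 55.6% and 59.4% of the members were intronic, 33.9% and 29.8% were outside genes, and 4.38% and 4.62% were in 5′ UTR exons, where 16.1% and 16% of the other promoter peaks lay.

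The DNA around starts has its own GC profile, so the members were set against it. In 200 bp windows around 15392 starts, the share with at most 45% GC was 2.64% in the first 250 bp after the start, 26.4% from 500 to 750 bp after it and 46.7% from 1000 to 750 bp before it. The share of promoter peaks that were low in GC was smaller than that of the windows in 8 of 8 position bins in both lists, for example 13.9% and 16.1% from 500 to 750 bp after the start. Within each of these bins the members also had a lower median percentile than the other promoter peaks, and were shared less often with an interval below 0, in 8 of 8 bins of both lists. In the bin from 500 to 750 bp after the start the median percentile was 32.0 against 54.2 in the Q111 DOP list and 31.0 against 54.2 in the Q111 SST list.

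**Figure D3:**
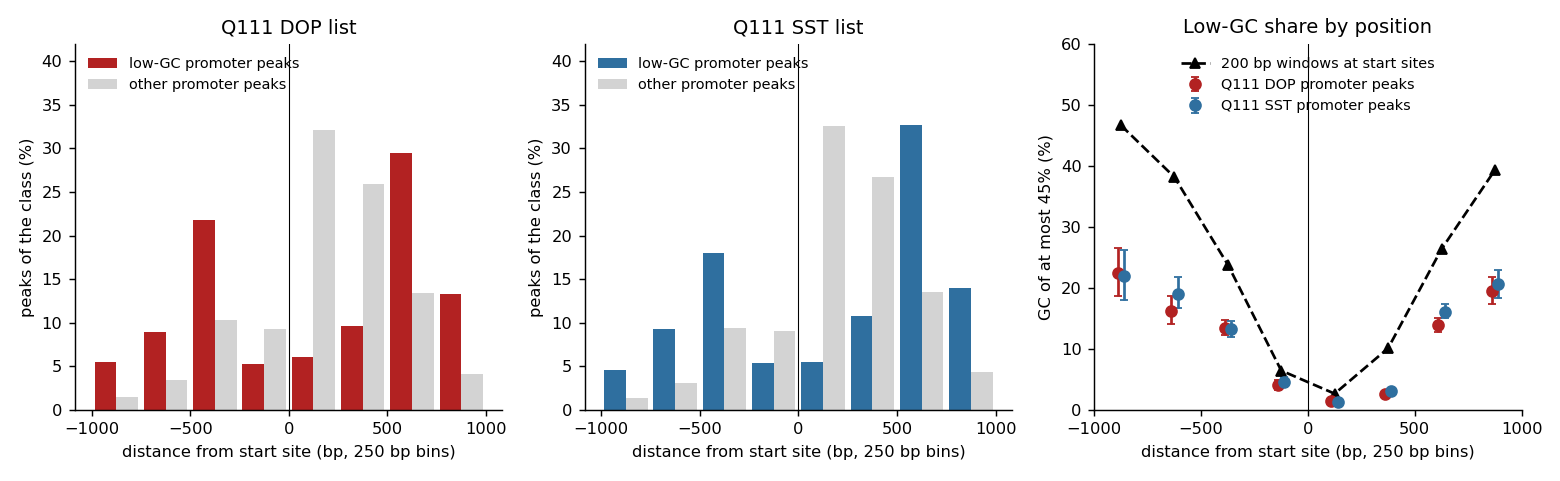
Distance of promoter peak centers from the nearest protein-coding transcript start in 250 bp bins, as shares of low-GC and of other promoter peaks in each list, and the share of promoter peaks with at most 45% GC in each bin (95% Wilson intervals) beside that of 200 bp windows around 15392 start sites. The low-GC peaks dip at the start, where the other promoter peaks are most frequent, and in each bin the peaks are low in GC less often than the windows.

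Most members were companions of a GC-richer peak. Outside the repeat stretches, 93.2% of the members in the Q111 DOP list and 93.0% in the Q111 SST list had another promoter peak above the GC limit within 1 kb in the same list, at a median distance of 436 and 425 bp. This share was not computed for the other promoter peaks, so it is not shown to be particular to the members. Several peaks per gene were common, with 25276 and 25008 promoter peaks at 11065 and 10923 genes. The 500 bp around their start had a median GC content of 61.5% in both lists, against 65.7% at the other promoter peaks. Among genes with both kinds of peak in a list (1459 and 1546), the low-GC peak was the highest of the gene at 43 (2.95%, interval 2.20 to 3.95) and at 59 genes (3.82%, interval 2.97 to 4.89). Within these genes the highest low-GC peak ranked below the highest GC-richer peak, with a median difference of -43.6 percentile points (quartiles -56.7 and -29.7) in the Q111 DOP list and of -43.0 (-56.7 and -29.5) in the Q111 SST list. The number of peaks of each kind was not matched. A gene with more GC-richer than low-GC peaks is more likely to have its highest among the former by number alone.

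Counting a gene for a peak within 1 kb of any of its starts, 11687 of 22372 protein-coding genes had a promoter peak in either list, and 2610 of these (22.3%) had a low-GC one. A low-GC peak was present in both lists at 969 genes, in the Q111 DOP list alone at 760 and in the Q111 SST list alone at 881. A gene counted for 1 list alone can still have an overlapping peak in the other list that is above the GC limit or outside the window. Among pairs of overlapping peaks, 835 were low-GC promoter peaks in both lists and 619 in 1 list only. Outside the repeat stretches, 43 genes had low-GC promoter peaks and no other in both lists together, 19 of them with a peak in both lists. For their members in the Q111 DOP and the Q111 SST list, the start had a median GC content of 44.7% and 45.7%. For members of genes with GC-richer peaks it was 62.1% in both lists. The median observed to expected CpG ratios at these starts were 0.319 and 0.331. The start was nonetheless above 45% GC for 47.4% and 51.4% of them. The 500 bp read around a start can include the low-GC interval itself, so these values are not independent of the choice of members. The peaks of these genes lay close to the start, 55.3% (interval 39.7 to 69.9) and 43.2% (28.7 to 59.1) of 38 and 37 within 250 bp, unlike the members with a GC-richer neighbor (9.97% and 9.58%). Their sharing could not be told from that of the other members at these numbers, with differences of -5.70 points (interval -21.7 to 8.37) and -3.27 points (-19.5 to 10.2).

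The highest of the genes with low-GC peaks alone, outside the repeat stretches, were Anxa1, Mrpl45 (of the mitochondrial ribosome), Tmem19, Ttc26 (an intraflagellar transport protein), Cwf19l2, 2610001J05Rik, Ogn, Ikzf2 (a zinc finger transcription factor of lymphocytes), 1810030N24Rik and Gja1 (connexin 43). Anxa1 had 2 peaks at percentiles 70.7 and 51.3 in the Q111 DOP list and 1 peak between them at 83.3 in the Q111 SST list. The single peak of Cwf19l2 ranked at 54.1 and 54.4, that of Ttc26 at 55.4 and 49.5, and that of Ikzf2, in a 5′ UTR exon, at 44.5 and 44.0. These 3 genes thus stood near the middle of both lists.

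Ogn, Omd and Aspn, neighbors on chromosome 13 that encode small leucine-rich proteoglycans of the extracellular matrix, each had low-GC promoter peaks alone in both lists (Omd and Aspn were chosen after their values were seen). Ogn ranked at 42.7 in the Q111 DOP list and at 48.2 and 40.9, with 2 peaks, in the Q111 SST list. Omd ranked at 37.7 and 38.7, and Aspn at 6.64 and 11.4. Gja1 (39.6) and Ppargc1a (39.0), which encodes a coactivator of mitochondrial biogenesis, had their only promoter peak in the Q111 SST list, with a Q111 DOP center 373 bp from that of Ppargc1a but outside the 1 kb window and none within 1 kb of that of Gja1. Of the genes with low-GC peaks alone outside the repeat stretches, 11 had a promoter peak in the Q111 SST list only and 13 in the Q111 DOP list only. Examples of the 13 were Slc7a11 (10.6), the cystine transporter that pairs with Slc3a2, and Elavl2 (10.2), a neuronal RNA-binding protein. Ppargc1a, Slc7a11 and Elavl2 were likewise chosen after their values were seen.

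By gene group, low-GC promoter peaks were most frequent at histone genes and ribosomal protein genes. Of the 66 replication-dependent histone genes with a promoter peak 45 had a low-GC one (68.2%), and of 79 genes for cytosolic ribosomal proteins 40 (50.6%), against 22.3% of all genes with a promoter peak. Histone genes stand close together, so that 1 peak can lie within 1 kb of several of them. Counted once each, 33 of 124 promoter peaks at histone genes in the Q111 DOP list (26.6%) and 23 of 112 in the Q111 SST list (20.5%) were low in GC, against 6.86% and 7.35% of all promoter peaks. Of these, 20 in each list were shared, and 13 of 33 and 3 of 23 were found in 1 list, against 33.3% and 31.6% of all members. At ribosomal protein genes 35 of 228 (15.4%) and 38 of 233 (16.3%) peaks were low in GC, and 8 of 35 and 6 of 38 of these were found in 1 list.

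The highest-ranked low-GC peaks of the histone group were at Hist1h2af and Hist1h3g, which share a peak (percentile 62.2 and 64.7), Hist2h4 (64.6 and 55.5) and, in the Q111 DOP list only, Hist1h2ap (63.2). A peak between Hist1h3c and Hist1h2bb ranked at 19.8 in the Q111 DOP list and 61.4 in the Q111 SST list, with centers 150 bp apart. In the ribosomal group they were at Rpl27 (90.5 in the Q111 SST list), Rpl7 (87.7 and 51.8 at different positions) and Rpl3 (76.5 and 79.3). Introns held the highest peak of Rpl27, Rpl7 and Rpl3.

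**Figure D4:**
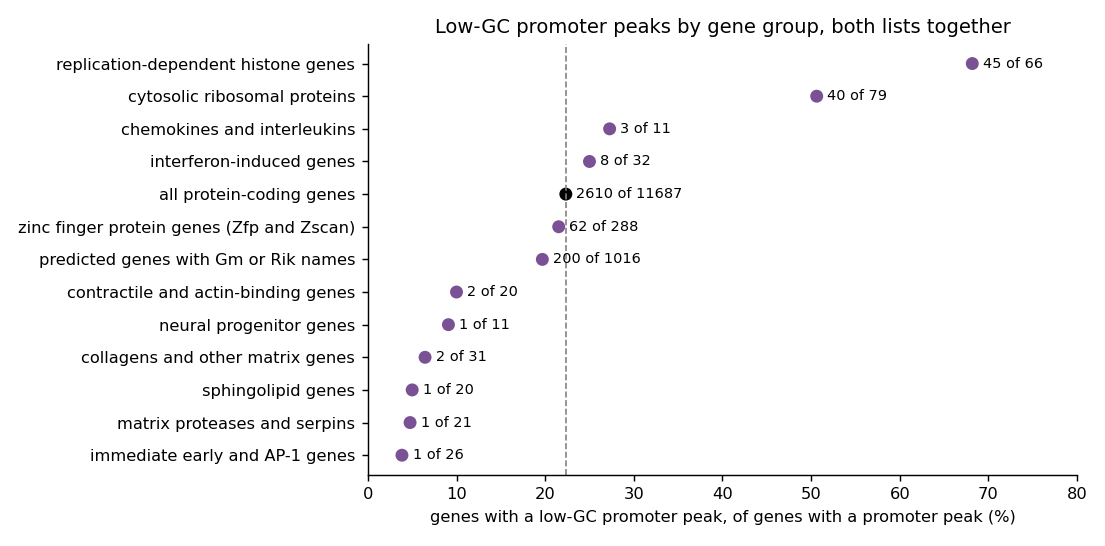
Share of genes with a low-GC promoter peak among genes with any promoter peak in either list, for gene groups with at least 10 such genes (counts beside the points); the dashed line is the share over all protein-coding genes. Histone genes (45 of 66) and ribosomal protein genes (40 of 79) lie above the line, while matrix, protease and immediate early genes lie below it with 1 or 2 genes each.

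Of 32 interferon-induced genes with a promoter peak 8 had a low-GC one (25%), near the share over all genes. The low-GC peak was in the Q111 SST list alone at 7 of them, in the Q111 DOP list alone at 1, and in both at none, whereas over all 2610 genes these counts were 881, 760 and 969. Those of the Q111 SST list included a peak shared by Oas1b and Oas1c (percentile 45), and peaks at Oasl1 (23.8), Ifi44 (20.2), Gbp2 (2 peaks, up to 17.4) and Ifit2 (14.2). That of the Q111 DOP list was at Stat2 (24.1), a transcription factor of the interferon response. Oasl1, Ifi44, Gbp2 and Ifit2 were named after their values were seen. The group is a fixed list, and 2 genes looked up outside it did not follow these counts. Ifi204 had a low-GC peak in the Q111 DOP list only (10.4), and Samd9l had low-GC peaks in both lists (up to 27.3 and 24.1). I830012O16Rik, named above and close to Ifit2 on chromosome 19, is also outside the list and did follow them. It had 2 promoter peaks in the Q111 SST list, 1 of them low in GC (51.1), and none in the Q111 DOP list. Oasl1, Ifi44 and Ifit2 had no promoter peak in the Q111 DOP list, whereas Oas1b, Oas1c, Gbp2 and Stat2 had one in both lists. In all, 50 promoter peaks of this group were in each list, of which 1 (2%) and 7 (14%) were low in GC, against 6.86% and 7.35% of all promoter peaks. The peak of Oas1b and Oas1c overlapped a Q111 DOP peak with its center 82 bp away, so that it is low in GC in 1 list but present in both, and the other 6 of the 7 were found in the Q111 SST list only. No replicate stands behind these counts.

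The other groups held few low-GC promoter peaks. They were present at Col5a2 (83.1 and 82.8) and Col3a1 (32.6 in the Q111 SST list) of 31 matrix genes, at Cald1 (74.7 and 72.0) and Vcl (19.5 and 15.6) of 20 contractile and actin-binding genes, and at Serpinb6a (17.9 in the Q111 SST list) of 21 matrix proteases and serpins. The nearest start to the Serpinb6a peak was that of Ripk1, at 561 bp. Col5a2 encodes a fibrillar collagen chain, and in the Q111 SST list all 3 of its promoter peaks were low in GC. Klf6 (76.0 in the Q111 DOP list) was the 1 of 26 immediate early genes, Foxp1 (19.9 in the Q111 SST list) the 1 of 7 genes of mature striatal neurons, and Vim (71.2 and 75.6), the intermediate filament of progenitors and mesenchymal cells, the 1 of 11 neural progenitor genes. Sptlc2, a subunit of serine palmitoyltransferase, was the 1 of 20 sphingolipid genes, with a peak at percentile 13.8 in the Q111 SST list. Zinc finger genes (62 of 288, 21.5%) and predicted genes with Gm or Rik names (200 of 1016, 19.7%) were near the share over all genes. The remaining groups gave Olfr212 (4.86 in the Q111 DOP list) of 2 olfactory, vomeronasal and taste receptors, none of 1 keratin gene, and, among 11 genes with names of chemokines or interleukins, Ccl25, which stands in the annotation under 2 identifiers (67.6 in the Q111 SST list), and Il4i1 (65.8 in the Q111 DOP list), which encodes an enzyme and not an interleukin.

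Where a low-GC peak was paired with an overlapping low-GC peak of the other list, its rank hardly differed between the lists. Over 835 such pairs the median difference, DOP minus SST, was 1.22 percentile points (quartiles -3.34 and 5.56), and over 18817 pairs of other promoter peaks it was 1.21 (-3.45 and 7.26). The difference exceeded 25 points at 20 of the 835 pairs, 12 higher in the Q111 DOP list and 8 higher in the Q111 SST list, and at 1279 of the 18817 other pairs (766 and 513), so wide gaps made up a smaller share of the low-GC pairs. The widest gaps toward the Q111 DOP list were at 3110057O12Rik (81.8 against 39.1), Pak1ip1 (65.1 against 31.3), Pkn2 (62.4 against 29.9), a protein kinase, and Rps27a (48.1 against 17.2), a ribosomal protein made fused to ubiquitin. Toward the Q111 SST list they were at Hist1h3c (19.8 against 61.4), Cct4 (21.8 against 55.8), a chaperonin subunit, Ostc (24.2 against 58.1) and Anxa1 (51.3 against 83.3). The Q111 SST peak of Anxa1 also overlapped the other Q111 DOP peak of the gene, at 70.7, so its gap depends on which peak is paired. These 8 genes were chosen after their values were seen, and the rank differences have no replicate error.

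**Figure D5:**
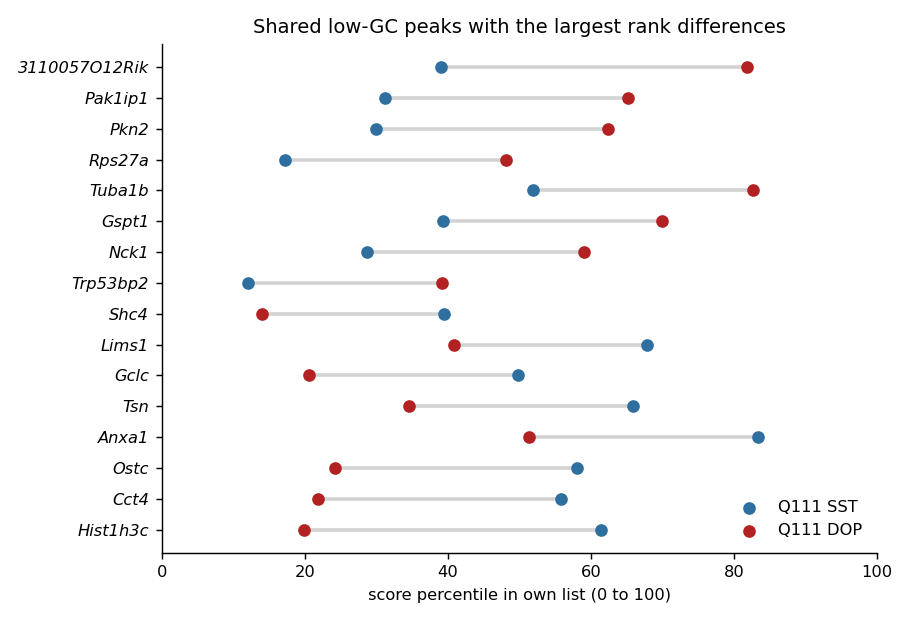
Score percentiles in both lists for the 8 pairs of overlapping low-GC promoter peaks with the widest gap in each direction, chosen from 835 pairs, labeled by nearest gene. The gaps, DOP minus SST, run from 27.1 to 42.8 percentile points in one direction and from -41.6 to -25.5 in the other, while the median difference over all pairs is 1.22 points.

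The sequence of the members was poor in CpG and in GC boxes. They held a median of 4 CpG per 200 bp interval in both lists, against 14 in the other promoter peaks. Motifs were searched on both strands of the interval. Because composition affects how often they occur, members outside the repeat stretches were set beside promoter peaks of 45 to 50% GC and beside all promoter peaks. The GC box (GGGCGG), bound by Sp1, was in 2.42% and 2.90% of members, in 5.25% and 4.99% of the 45 to 50% GC peaks and in 33.2% and 33.9% of all promoter peaks. The TATA box motif (TATAAAA or TATAAAT or TATATAA or TATATAT) was in 9.92% and 10.6% of members, in 5.34% and 5.86% of the 45 to 50% GC peaks and in 1.73% and 1.80% of all promoter peaks. Members were chosen for low GC, so more motifs of A and T and fewer of G and C follow from the choice, and these shares are a description. At 20 to 40 bases before the nearest start, on its strand, it was found for 19 and 14 members (1.10% and 0.762%), against 0.582% and 0.604% of the other promoter peaks.

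The CCAAT box (CCAAT) was in 23.3% and 23.9% of members, against 21.3% and 21.1% of the 45 to 50% GC peaks and 13.1% and 12.7% of all promoter peaks. For AP-1 (TGACTCA, which reads as TGAGTCA on the opposite strand) the shares were 3.48% and 3.02% of members and 2.45% and 2.04% of the 45 to 50% GC peaks. The GGAATG motif of TEAD factors was in 10.3% and 11.4% of members, against 10.6% and 10.4% of the 45 to 50% GC peaks. Among all promoter peaks, AP-1 was in 1.58% and 1.48% and GGAATG in 7.69% and 7.77%. These counts say only where the letters occur in the intervals.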

How the data were processed

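H3K9ac ChIP-seq of Q111 DOP and Q111 SST cells was aligned to mm9. The paper's methods name Bowtie 2 and peak calling with GPS, and the submitters' processing notes name BWA 0.7.10. The authors deposited 1 list per condition, with a 200 bp interval and a score for each peak. These lists differ in size from the peak sets described in the paper. The definition of this score, the depth, the calling threshold and the way both samples and the IgG control entered are not stated. Intervals were placed against protein-coding transcript starts of GENCODE vM1, and GC content was read from mm9. Shares have 95% Wilson intervals, differences Newcombe intervals and ratios Woolf intervals. Peaks of 1 promoter are not independent, so these are too narrow, and no p-value was computed. The members and gene lists were chosen with earlier results of these data known. Genes named are the 10 highest low-GC peaks of each list, the 5 highest found in 1 list, the 10 highest genes with low-GC peaks alone, and members of the gene lists. Repeating this outside the repeat stretches was added after seeing the data. Scripts were checked on simulated data and ran under Python 3.11.15 with scipy 1.17.1, pandas 2.3.3 and numpy 2.4.6 for the statistics, samtools 1.23.1 and pysam 0.24.0 for the genome, and matplotlib 3.10.9 for the figures. A few genes are not reported here.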

Additional observations from a re-analysis of the deposited data

How the results depend on the processing

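Of 119 values recomputed under alternatives, 80 were counted as unchanged. For differences and ratios this required only the same direction and an interval that still excluded no difference, whatever the size. With centers within 500 bp counted as shared, for example, the difference in sharing was -9.74 and -8.39 points, against -22.2 and -23.1 as reported. Values are given for the Q111 DOP and then the Q111 SST list. With a GC limit of 40%, there were 504 and 587 low-GC promoter peaks (1.99% and 2.35% of promoter peaks) at 463 and 525 genes, with median percentiles of 28.6 and 28.8. With a limit of 50%, there were 4019 and 4041 (15.9% and 16.2%) at 3332 and 3340 genes, with medians of 34.3 and 34.0. With a window of 500 bp around starts, there were 742 and 725 (3.896% and 3.86%) at 707 and 674 genes, and the ratio of one-list ratios was 0.885 (interval 0.725 to 1.08). With a window of 2 kb the shares were 7.90% and 8.503%. With GC read over 1 kb, there were 716 and 761 (2.83% and 3.04%) at 639 and 666 genes, with medians of 26.7 and 26.7. With scores of at least 100, the medians were 25 and 24.6, and the share in the Q111 SST list was 6.88%. With centers within 1 kb counted as shared, the difference in sharing was 0.175 points, with its sign reversed, and -0.282 points, and the ratio of ratios was 0.742 (interval 0.466 to 1.18). Over all alternatives the difference in sharing ranged from -27.9 to 0.175 and from -28.5 to -0.282 points, and that in the top 50% by score from -59.1 to -42.3 and from -58.3 to -41.4 points. Leaving out the repeat stretches and taking 1 peak per gene were among the alternatives chosen after seeing the data.

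No paired analysis was possible because each condition has 1 list, and no replicate was left out for the same reason. The alternative that uses soft-masked repeats was not run, since the genome used is not soft-masked. Depth per sample is unknown.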
